A study of Mus musculus with 6 samples.

Results

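The suppressors of cytokine signalling Socs1 to Socs7 and their relative Cish (the gene of CIS) form a family of 8 genes in the mouse, and all 8 were found by symbol among 21938 protein-coding genes of the annotation. Trimethylation of histone H3 at lysine 4 (H3K4me3), a mark of active and poised promoters, was measured at these genes by ChIP-seq in a pair of mouse lymphoid progenitor lines. The pro-T line Scid.adh.2C2 is a subclone of a line from a spontaneous thymic lymphoma of CB17 mice that carry the Prkdc scid mutation, and the pre-B line is an Abelson-transformed mouse B-cell progenitor line. Neither line was treated, and for each line 2 H3K4me3 ChIP libraries and 1 input library were made. Each lineage is represented by a single transformed line, so that lineage, transformation and culture cannot be told apart. For each line the authors deposited 1 list of peaks in which the replicates are combined, with 15513 peaks in pro-T and 19604 peaks in pre-B. The lists hold no read counts and no value per replicate. The depth is therefore unknown, replicate error cannot be estimated, and no difference between the lines was tested.

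The members were chosen by family name, with the promoter peaks of these lists already known. The known values are the peaks within 2500 bp of an annotated transcription start site (TSS) in GENCODE M21 on GRCm38, their fold enrichment over background, their width and their summit, and all of them are given here as a description. A gene is called marked where a peak overlaps this promoter window by at least 1 bp. The labels of the lines were checked on marker genes. Of 8 T-lineage markers, 8 were marked in pro-T and 2 in pre-B. Of 8 B-lineage markers, 1 was marked in pro-T and 8 in pre-B, and 6 markers of myeloid, erythroid and NK cells were marked in neither line.

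SOCS proteins are brakes on cytokine receptors. Cytokine binding activates receptor-bound Jak kinases, which phosphorylate the receptor and the Stat factors, and Stat dimers then switch on several of the Socs genes themselves. The proteins bind phosphotyrosine through an SH2 domain, and their SOCS box recruits elongins B and C and Cullin 5, a ubiquitin ligase that marks bound proteins for degradation. CIS, SOCS1, SOCS2 and SOCS3 are the cytokine-induced members of this loop, whereas SOCS4 to SOCS7 are better known from growth factor and insulin signalling. In lymphocytes, SOCS1 restrains interferon gamma and common gamma chain cytokines such as interleukin 7.

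Stat dimers bind the interferon gamma activated sequence (GAS), TTCNNNGAA, which reads the same on both strands. The stretches below hold the GAS matches found near a TSS of a member (250 bases before to 50 bases after it) or in a gap between neighbouring peaks at its promoter. They are shown because they lie at or between the promoter peaks described below. Each is 30 bases long, read 5′ to 3′ on the strand of the gene from the GRCm38 genome, with the matches in capitals.
Cish, chr9:107296654-107296683, plus strand: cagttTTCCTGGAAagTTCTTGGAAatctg
Cish, chr9:107296762-107296791, plus strand: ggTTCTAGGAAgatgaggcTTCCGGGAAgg
Socs2, chr10:95416899-95416928, minus strand: gcggaTTCCTGGAAagTTCCTGGAAagcgg
Socs3, chr11:117969229-117969258, minus strand: cggccgggcagTTCCAGGAAtcggggggcg
Socs3, chr11:117969502-117969531, minus strand: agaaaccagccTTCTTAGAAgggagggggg
Cish has 2 pairs of matches. In its first pair and in the pair of Socs2 the matches are 2 bases apart, and in the other Cish pair they are 8 bases apart. Of 32817 RefSeq promoter sequences of the same 300 bases, 8.29% hold a GAS match. This is a share of single windows, whereas the stretches come from all TSS windows of a gene and from gaps. Windows with a match were 3 of 5 for Cish, 2 of 12 for Socs2 and 2 of 3 for Socs3. The other members had none, and windows of neighbouring TSSs overlap. A match is a description of the letters and does not show that a factor was bound.

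A promoter peak was found for 6 of the 8 genes in pro-T, against 45.5% of all protein-coding genes, and for 7 of the 8 genes in pre-B, against 48.2%. Both lines marked 5 of the 8 genes (42.2% of all genes). Socs5 was marked in pro-T only, a state of 3.28% of all genes. Cish and Socs1 were marked in pre-B only, a state of 5.97% of all genes. None of the 8 genes was unmarked in both lines, whereas 48.5% of all genes were. Since these peaks were known when the family was chosen, nothing is read from the counts beyond their values. The 8 promoter peaks of pro-T and 13 of the 14 of pre-B had the highest score of 1000 in the irreproducible discovery rate (IDR) step, by which the authors compared the ranks of peaks between replicates. The share of all peaks with this score was not computed. Weak peaks outside the promoter windows reached it too, among them a 6.01-fold enriched pro-T peak near Socs5 and a 5.54-fold enriched pre-B peak near Socs3. Nothing about the family is therefore read from this score.

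**Figure D1:**
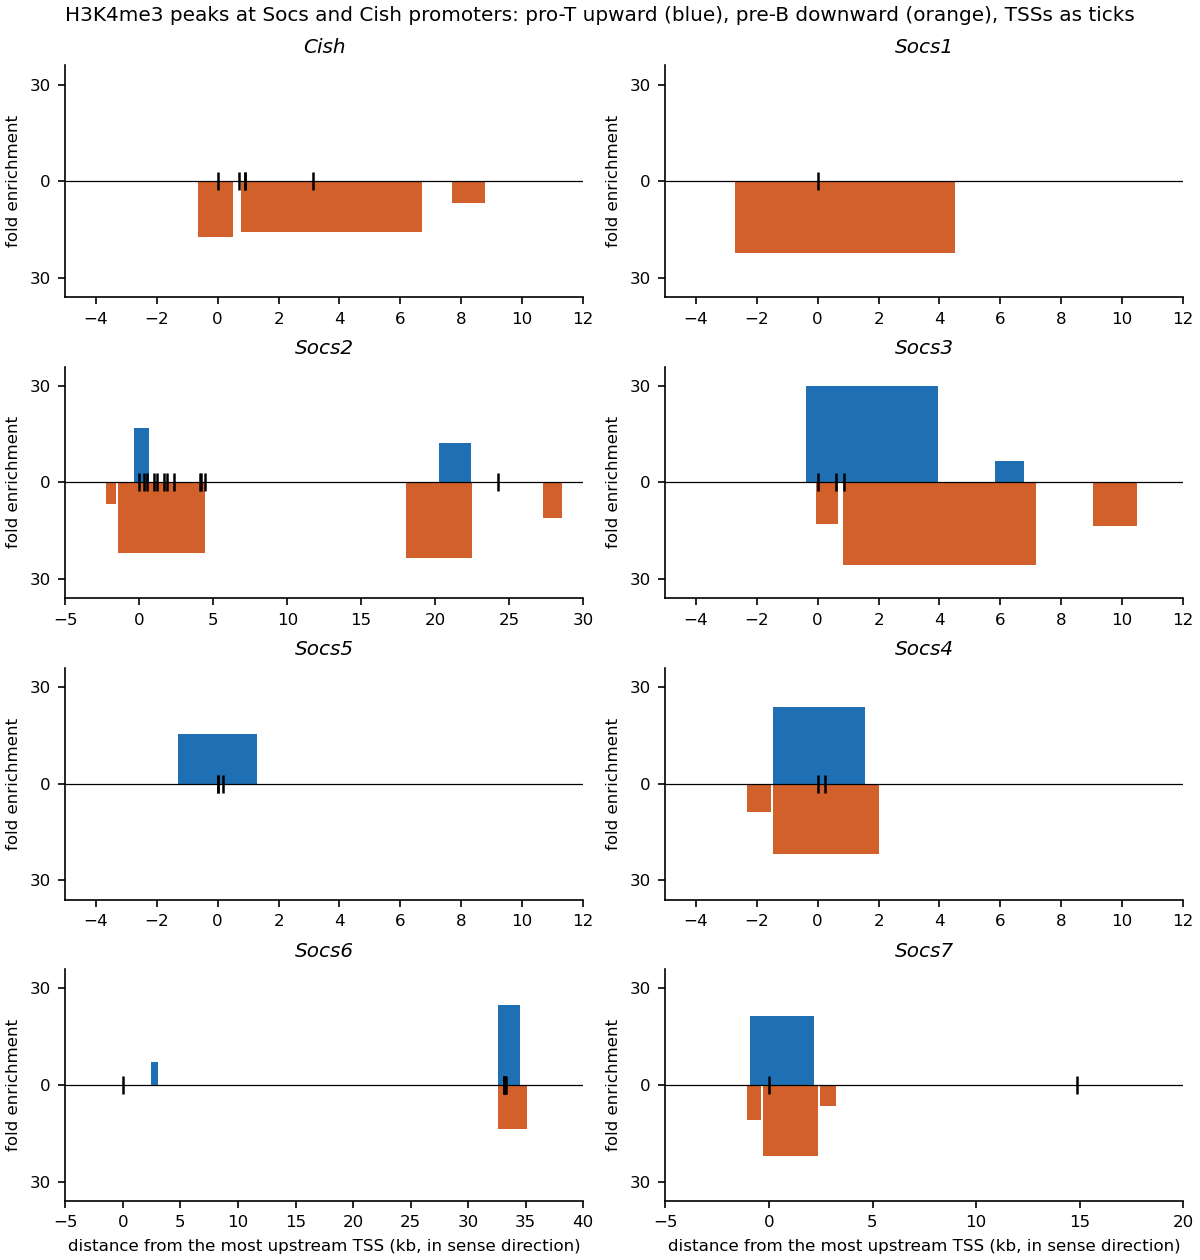
H3K4me3 peaks around the TSSs of the 8 genes, with the distance from the most upstream TSS in kb on the x axis and the fold enrichment on the y axis. Peaks of pro-T point upward and peaks of pre-B downward, each as wide as the called peak, and ticks mark annotated TSSs. The Socs6 panel does not reach its TSSs at 88887337 and 88758491. Cish and Socs1 carry peaks in pre-B only, and Socs5 in pro-T only.

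Cish, the gene of the inhibitor that docks on receptor sites used by Stat5, lies on chromosome 9 from 107296026 to 107302784 on the plus strand (ENSMUSG00000032578) and has 5 annotated TSSs. In pre-B a peak from 107295367 to 107296541 was 17.4-fold enriched, with its summit at 107296351 in an annotated 5′ UTR. A second peak from 107296801 to 107302744 was 15.8-fold enriched and 5944 bp wide, so that it ended 40 bp before the annotated end of the gene. This width was at percentile 97.8 of the widest promoter peaks of the 10570 genes marked in pre-B, whereas the 17.4-fold enrichment was at percentile 24.3 of their highest values. The mark at Cish was thus wide rather than high within its list. Both peaks also reached the promoter window of Gm17040, and the wider one that of Gm17041. Neither of these genes is protein-coding. In pro-T no peak was found at Cish, and the nearest peak lay 38384 bp from its TSSs, at the promoters of Hemk1 and 6430571L13Rik, with a fold enrichment of 25.8.

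The gap between the pair of Cish peaks in pre-B covers 259 bp, from 107296542 to 107296800, and contains the TSS at 107296710. Both Cish stretches printed above lie in this gap, so that it holds 4 GAS matches. Among 2362 gaps of at most 300 bp between neighbouring promoter peaks of the pre-B list, 5.97% held at least 1 match in a window of 259 bp around their centre. At least 4 matches were found in 1 of them, which is the Cish gap (0.0423%). The search of gaps was added after the peaks had been seen. Accessibility and Stat binding were not measured in these lists.

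Socs1 encodes the inhibitor that blocks Jak kinases directly through a kinase inhibitory region. It lies on chromosome 16 from 10782240 to 10785536 on the minus strand (ENSMUSG00000038037), and its transcripts share 1 TSS at 10785536. In pre-B a single peak from 10781026 to 10788259 spanned the whole gene with a width of 7234 bp, at percentile 99.2 of the genes marked in that line. It covered the whole promoter window of 5001 bp, and its fold enrichment was 22.3, at percentile 54.2. The summit at 10782901 lay in the 3′ UTR, 2635 bp downstream of the TSS, so that the strongest point of this domain was outside the promoter window. The peak also reached the promoter window of Tnp2, a gene of sperm chromatin packing. In pro-T no peak was found, and the nearest was 101272 bp away.

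The 250 bases upstream of the Socs1 TSS are shown because they lie inside the pre-B domain and, unlike the promoters of Cish and Socs3, hold no GAS match, although the domain as a whole holds 4. In this Socs1 is no exception, since no TSS window of Socs4, Socs5, Socs6 or Socs7 holds a GAS match either. The sequence is that of the RefSeq promoter table (GRCm38.p6), chr16:10785537-10785786, minus strand, with capitals for GAAANNGAA, part of the element bound by interferon regulatory factors.
Socs1 upstream: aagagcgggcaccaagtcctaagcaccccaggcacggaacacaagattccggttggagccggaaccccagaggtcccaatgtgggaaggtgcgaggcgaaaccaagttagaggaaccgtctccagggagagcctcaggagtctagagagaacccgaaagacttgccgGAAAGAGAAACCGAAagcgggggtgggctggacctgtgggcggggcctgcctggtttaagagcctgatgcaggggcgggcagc
There are 2 overlapping matches to GAAANNGAA, on the strand of the gene, starting at positions -83 and -77 from the TSS. This motif was searched on both strands and was added after the data had been seen, and 8.55% of the 32817 RefSeq promoter windows hold it. The table had an entry for 4 of the 8 genes, which are Cish, Socs1, Socs3 and Socs4.

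Socs2, best known as the inhibitor of the growth hormone receptor, lies on chromosome 10 from 95385362 to 95417180 on the minus strand (ENSMUSG00000020027) and has 12 annotated TSSs. In pro-T a narrow peak (95416515 to 95417529, 1015 bp) was 16.9-fold enriched and covered the 3 most upstream TSSs. In pre-B the peak at the same place reached from 95412771 to 95418605, was 5835 bp wide and 21.8-fold enriched, and contained 10 of the TSSs. The pair of GAS matches printed above was inside the peak in both lines. In both lines this peak also reached the promoter window of 5730420D15Rik, which is not protein-coding. A further peak lay in an intron, with its summit 22028 bp downstream of the most upstream TSS in pro-T and 21999 bp in pre-B. It was 12.3-fold enriched and 2208 bp wide in pro-T, and 23.4-fold enriched and 4463 bp wide in pre-B. The intronic peak is the highest of Socs2 in pre-B and counts as a promoter peak because the TSS of a transcript with a retained intron at 95392967 is 1765 bp from its edge in pro-T and 1738 bp in pre-B. The highest Socs2 fold enrichment was at percentile 11.3 of the marked genes in pro-T and at percentile 61.8 in pre-B. Its widest peak was the intronic one in pro-T, at percentile 54.2, and the one around the upstream TSSs in pre-B, at percentile 97.7.

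Socs3, the inhibitor of gp130 receptors and likewise a direct inhibitor of Jak kinases, was marked in both lines. It lies on chromosome 11 from 117966079 to 117970047 on the minus strand (ENSMUSG00000053113). In pro-T a single peak from 117966092 to 117970446 spanned all but 13 bp of the gene, was 4355 bp wide, and reached 30-fold enrichment, the highest value of the family in that list. In pre-B the mark was divided between a 25.6-fold enriched peak from 117962890 to 117969218 (6329 bp) and a smaller, 13.0-fold enriched one from 117969391 to 117970110 (720 bp). The larger pre-B peak extended 3189 bp past the annotated end of the gene. Width percentiles were 96.6 in pro-T and 98.3 in pre-B, so that Socs3 had a wide domain in both lines. Its highest fold enrichment was at percentile 64.9 in pro-T and at percentile 75.8 in pre-B. The gap of 172 bp between the pre-B peaks held 1 GAS match, against 4.15% of windows of this length around the gaps of the list. In pro-T the same match lay inside the undivided peak.

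In pre-B the widest peaks of Socs4, Socs6 and Socs7 were narrower than those of Cish, Socs1, Socs2 and Socs3. Socs4, on chromosome 14 from 47276931 to 47296102 on the plus strand (ENSMUSG00000048379), shares its promoter peaks with the divergent gene Wdhd1, which encodes a replication factor. These peaks also reached the promoter window of Gm49150, which is not protein-coding. The highest Socs4 peak was 23.8-fold enriched and 3012 bp wide in pro-T and 21.8-fold enriched and 3476 bp wide in pre-B. These widths were at percentile 82.9 in pro-T and at percentile 81.8 in pre-B. Socs7, on chromosome 11 from 97362551 to 97398542 on the plus strand (ENSMUSG00000038485), had a peak of 3088 bp with a fold enrichment of 21.3 in pro-T. This width was at percentile 84.4 of that list. In pre-B it had 3 neighbouring peaks of 696, 2660 and 783 bp with fold enrichments of 10.9, 22.1 and 6.59. The last of these was the member peak nearest to the limit of the promoter rule from the inside, at 2461 bp from a TSS. The nearest from the outside was a pre-B peak at Socs2, 3074 bp from a TSS and 11.2-fold enriched.

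Socs6 lies on the minus strand of chromosome 18 from 88665224 to 88927481 (ENSMUSG00000056153). The peak around its cluster of internal TSSs was 24.7-fold enriched and 1908 bp wide in pro-T and 13.8-fold enriched and 2437 bp wide in pre-B. Within their lists these heights were at percentile 38.1 and percentile 10.7. A small peak of 661 bp with a fold enrichment of 7.00 was found in pro-T only. Its edge lay 2411 bp from the most upstream TSS. Its summit, in an intron, lay 2656 bp from that TSS and thus outside the promoter window.

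Socs5 had the pattern opposite to that of Cish and Socs1. It lies on chromosome 17 from 87107679 to 87137839 on the plus strand (ENSMUSG00000037104), and its 3 TSSs are within 179 bp of each other. In pro-T a peak from 87106364 to 87108961 contained them all, with a width of 2598 bp and a fold enrichment of 15.4, at percentile 8.96 of the marked genes. In pre-B no peak was found, and the nearest lay 81150 bp away at the shared promoter of Pigf and Cript, with a fold enrichment of 16.9. The Socs5 windows from 250 bases before to 50 bases after a TSS held 32 to 42 CpG dinucleotides and no GAS match. The median over the RefSeq promoter windows was 7 CpG dinucleotides. The highest count of any TSS window was 34 for Socs4, 39 for Socs6, 44 for Socs7, 39 for Socs2, 35 for Socs3, 22 for Cish and 18 for Socs1. By this highest count the pair marked in pre-B only was lowest in the family, yet at percentile 78.5 (Cish) and percentile 72.0 (Socs1) of the RefSeq windows. The highest count depends on the number of TSSs, which is 1 for Socs1 and 12 for Socs2. By the lowest count of any TSS window, Socs6 and Socs7 had 0 and Socs2 had 1, against 3 for Cish and 18 for Socs1. A relation of CpG content to the marked line was not tested.

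**Figure D2:**
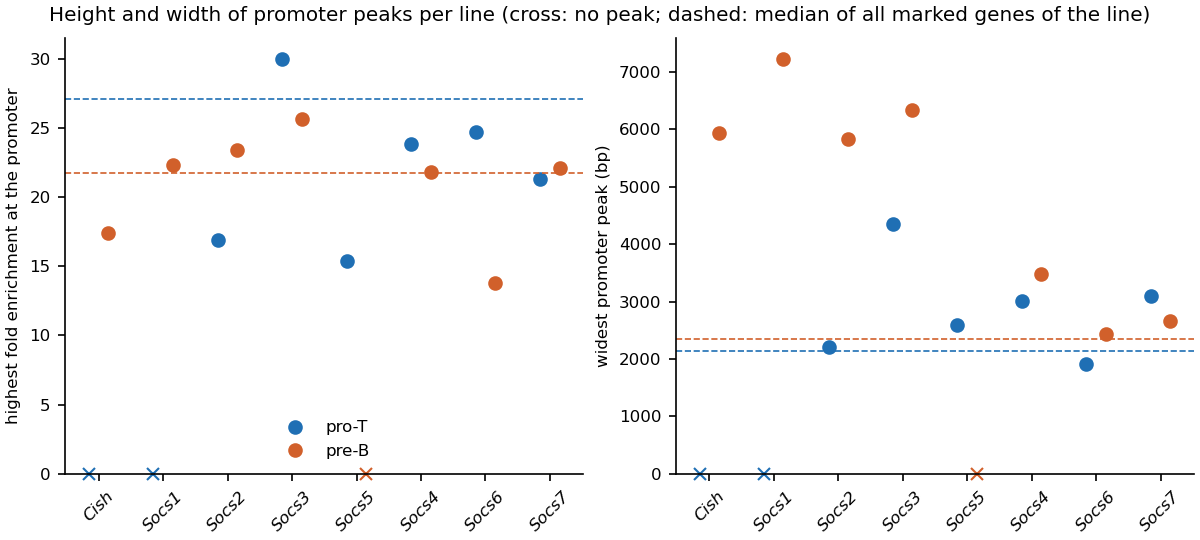
Highest fold enrichment (left) and width in bp of the widest promoter peak (right) for each gene, with pro-T in blue and pre-B in orange. Crosses at 0 stand for no peak, and dashed lines give the median over all marked genes of the line, 27.1-fold and 2134 bp in pro-T and 21.7-fold and 2351 bp in pre-B. The pre-B peaks of Cish, Socs1, Socs2 and Socs3 lie between 5835 and 7234 bp.

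In pre-B the cytokine-induced members had the widest single peaks. The widest peaks of Cish, Socs1, Socs2 and Socs3 measured 5944, 7234, 5835 and 6329 bp, whereas those of Socs4, Socs6 and Socs7 measured 3476, 2437 and 2660 bp. By this measure the groups do not overlap, but they were formed with the widths known. They do overlap in the length of the promoter windows covered by peaks, which was 6030 bp for Cish, 5001 bp for Socs1, 7290 bp for Socs2 and 3253 bp for Socs3, against 4264 bp for Socs4, 2437 bp for Socs6 and 3396 bp for Socs7. Socs3 falls below Socs4 and Socs7 here, since its larger pre-B peak reaches past the window. In pro-T the widest peaks were 2208 bp for Socs2 (the intronic peak), 4355 bp for Socs3, 3012 bp for Socs4, 2598 bp for Socs5, 1908 bp for Socs6 and 3088 bp for Socs7, and there the groups overlap. Over the marked members the median of the widest peak was 2805 bp in pro-T and 5835 bp in pre-B, beside 2134 and 2351 bp over all marked genes. The median of the highest fold enrichment was 22.6 in pro-T and 22.1 in pre-B, beside 27.1 and 21.7 over all marked genes.

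Of the 5 genes marked in both lines, 4 had the wider peak in pre-B, against 70.1% of all genes marked in both. The width in pre-B was 1.45 times that in pro-T for Socs3, 1.28 times for Socs6, 1.15 times for Socs4 and 0.861 times for Socs7, and the median ratio over all genes marked in both lines was 1.1. For Socs2 the widest peaks of the lines lie at different places, and at the same place the widths were 1015 bp in pro-T and 5835 bp in pre-B around the upstream TSSs, and 2208 and 4463 bp in the intron. Which gene was the exception depended on the measure. By summed width the ratio was 1.34 for Socs7 and 0.949 for Socs6, and by covered length Socs3 had 3761 bp in pro-T and 3253 bp in pre-B. At least 2 promoter peaks were found for 2 of 6 marked members in pro-T (25.8% of all marked genes) and for 5 of 7 in pre-B (33.2%). In pro-T these were Socs2 and Socs6, whose peaks lie far apart in the windows of different TSSs. In pre-B all 5 genes (Cish, Socs2, Socs3, Socs4 and Socs7) had neighbouring peaks with a gap of 70 to 259 bp. The pre-B list is the longer, and its depth relative to the pro-T list is unknown. The part of depth and of peak splitting in these widths was not tested.

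The surroundings of the genes were not used in choosing them. Within 100 kb of the outermost TSSs, and more than 2500 bp from any annotated TSS, 9 peaks were found around the 8 genes in pro-T and 26 in pre-B. The mean over all protein-coding genes was 0.521 such peaks per gene in pro-T and 0.873 in pre-B, and the median was 0 in both lines. This comparison includes the 48.5% of genes marked in neither line, whereas all 8 members were marked in at least 1. A mean over marked genes alone was not computed. The regions are also longer where TSSs lie apart, with 168990 bp between the outermost TSSs of Socs6 and 24213 bp for Socs2. Pre-B had the larger number at 6 genes, pro-T at Socs5, and neither line had any at Socs4. Most of them were around Socs3, with 4 in pro-T and 7 in pre-B, Socs1, with 0 and 6, Socs2, with 1 and 6, and Socs7, with 3 and 5. Of the 9 pro-T peaks 7 overlapped a pre-B peak, and of the 26 pre-B peaks 6 overlapped a pro-T peak. The share of all such peaks of a list that overlap the other list was not computed. Nor was the share of all genes with the larger number in pre-B. With the longer pre-B list, these counts are not read as a trait of the family.

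**Figure D3:**
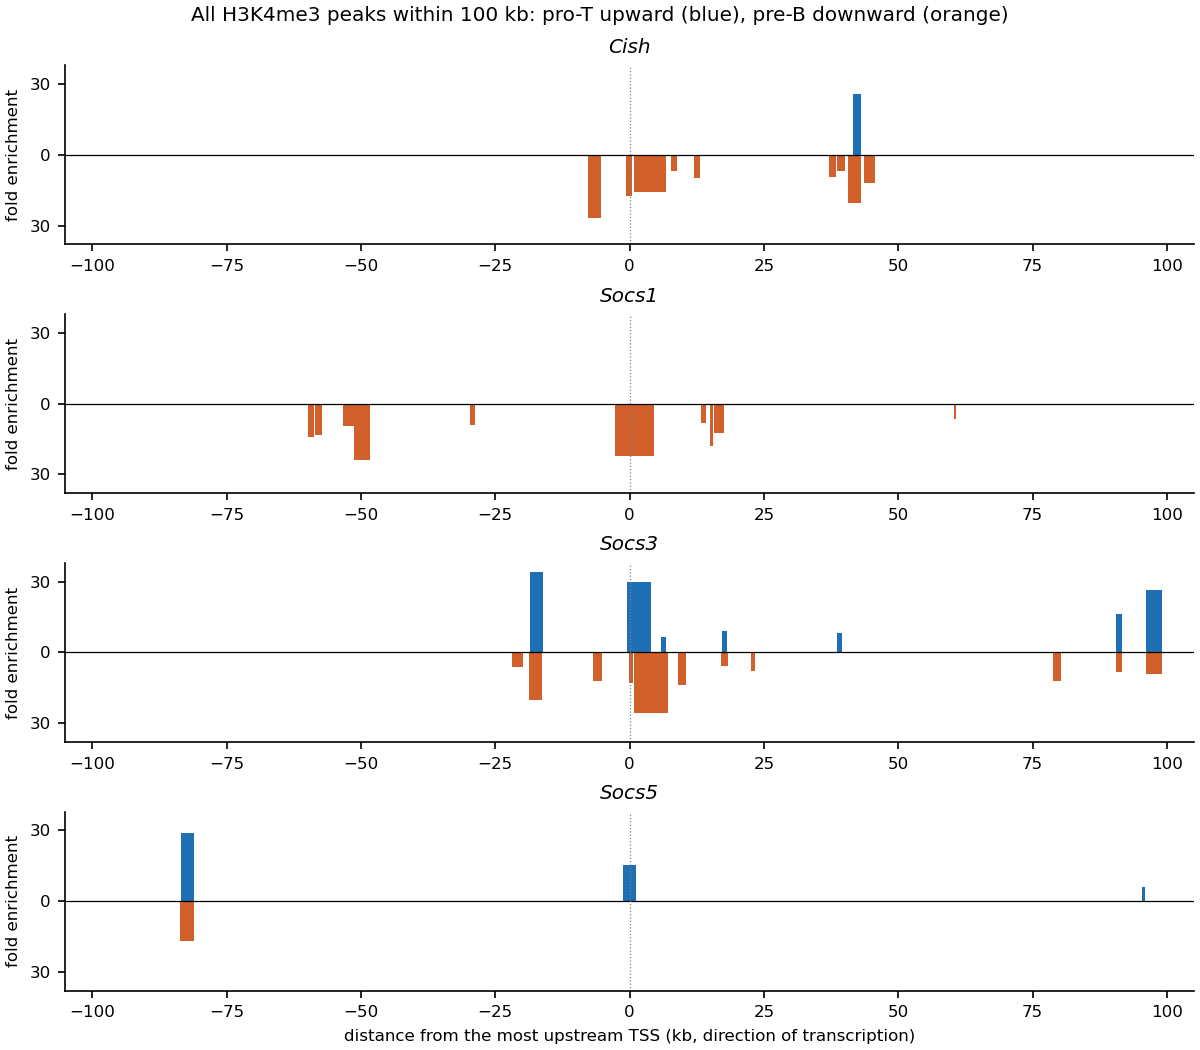
All H3K4me3 peaks within 100 kb of the outermost TSSs of Cish, Socs1, Socs3 and Socs5, with the distance from the most upstream TSS in kb on the x axis and the fold enrichment on the y axis, pro-T upward and pre-B downward. Around Socs1 there are 10 peaks in pre-B and none in pro-T, whereas around Socs3 both lines have peaks on either side.

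At Socs1 the difference between the lines reached beyond the gene. Within 100 kb of its TSS there were 10 peaks in pre-B and 0 in pro-T. Such a region, without any pro-T peak and with at least 1 pre-B peak, surrounded 4.24% of all protein-coding genes. The stretch without a pro-T peak ran from 10684265 to 11065559 on chromosome 16 (381 kb) and held 7 protein-coding genes, of which Socs1, Tnp2, Gm11172 and Rmi2 had a promoter peak in pre-B. The peak at Rmi2, which encodes a subunit of the complex that dissolves recombination intermediates, was 23.7-fold enriched. Whether this DNA is present in Scid.adh.2C2 was not tested. At Cish the stretch without a pro-T peak covered 444 kb and held 3 genes. Of these, Cish and its upstream neighbour Mapkapk3, a kinase gene with a 26.7-fold enriched promoter peak, were marked in pre-B, and Dock3 was not. The stretch around Socs5 without a pre-B peak covered 238 kb and held no other protein-coding gene.

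GAS matches were counted in the promoter peaks themselves as well. In pre-B the 14 promoter peaks of the family held 25 matches in 43.2 kb (0.578 per kb), beside 0.298 per kb over all promoter peaks of the list. In pro-T the 8 peaks held 8 matches in 18.8 kb (0.425 per kb), beside 0.281 per kb. Within the family the pre-B densities ranged from 0.469 per kb at Socs4 to 0.821 per kb at Socs6, and those of Cish, Socs1, Socs2 and Socs3 were between 0.546 and 0.567 per kb. The lowest and the highest of these densities, at Socs4 and Socs6, rest on 2 matches each. Matches in the gaps between peaks are not counted here, and a relation of density to width was not tested. The matches of GAAANNGAA numbered 18 in pre-B (0.416 per kb, beside 0.328) and 5 in pro-T (0.265 per kb, beside 0.314).

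The genes around the feedback loop were described from lists of known pathway members. Of 11 genes of Jak kinases and Stat factors, 10 were marked in both lines, a state of 42.2% of all genes. Stat4, which acts downstream of interleukin 12, was marked in pre-B only with a fold enrichment of 15.8. Stat5a was 24.1-fold enriched in pro-T and 27.3-fold in pre-B, and Jak3, the kinase of the common gamma chain, 15-fold and 28.6-fold. All 6 genes of the ubiquitin ligase and its relatives (Elob, Eloc, Cul5, Rnf7, Cul2 and Rbx1) and all 13 other negative regulators of the pathway, among them phosphatases such as Ptpn6 and the Pias genes, were marked in both lines. Since 3.28% of all genes were marked in pro-T only and 5.97% in pre-B only, the lack of such genes in lists of this size is not a result about these regulators.

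Of 20 cytokine receptor genes, 9 were marked in both lines, 2 in pro-T only, 3 in pre-B only and 6 in neither. Over all protein-coding genes the shares of these states were 42.2%, 3.28%, 5.97% and 48.5%. Il2ra, the alpha chain of the interleukin 2 receptor, was marked in pro-T only with a fold enrichment of 21.8, as was Epor with 8.84. In pre-B only, Il4ra had 19.9-fold, Csf2rb 18.9-fold and Csf2rb2 17.6-fold enriched promoter peaks. Il7r was marked in both lines, with a fold enrichment of 20.1 in pro-T and 13.9 in pre-B.

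Of 10 genes that respond to Stat5, 8 were marked in both lines (42.2% of all genes). Myc and Ccnd2 were marked in pre-B only (5.97% of all genes), with fold enrichments of 31.9 and 20.4 and widths of 6600 and 4621 bp. The kinase gene Pim1 was marked in both, with a peak of 2271 bp in pro-T and of 4756 bp in pre-B. Among 26 other genes with a SOCS box, from the Asb, Wsb, Spsb and Rab40 groups, 13 were marked in both lines, 2 in pro-T only, 3 in pre-B only and 8 in neither. The shares over all genes were 42.2%, 3.28%, 5.97% and 48.5%. Spsb4 (10.5-fold) and Asb14 (7.26-fold) were marked in pro-T only, and Asb2 (18.8-fold), Spsb2 (13.8-fold) and Asb10 (8.94-fold) in pre-B only.

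**Figure D4:**
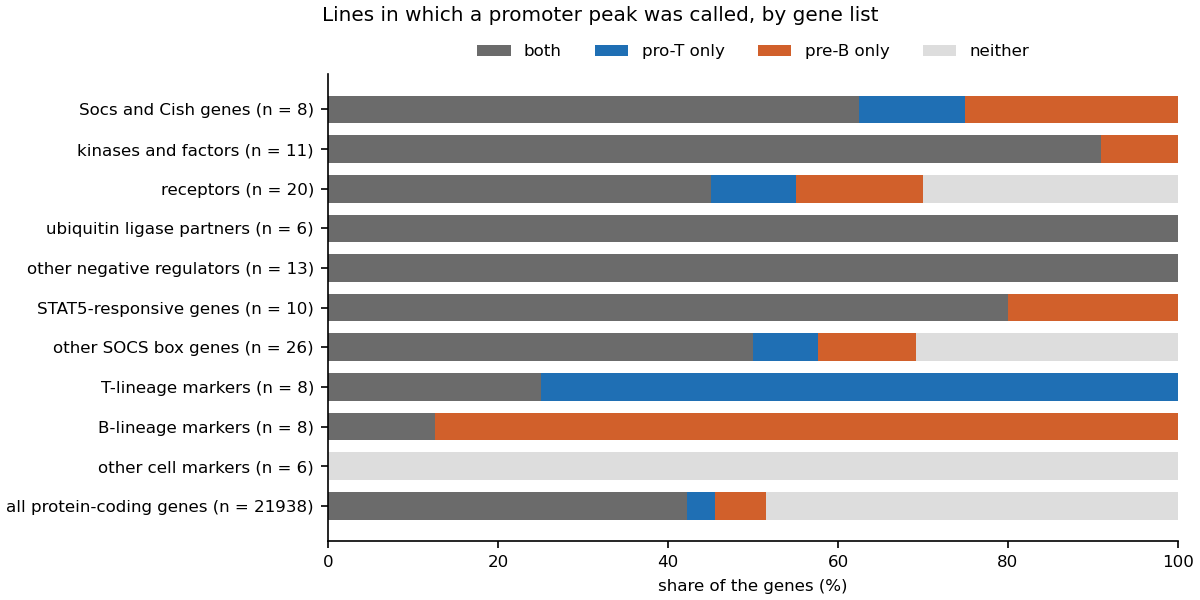
Share in percent of the genes of each list, with the number of genes in brackets, that had a promoter peak in both lines, in pro-T only, in pre-B only or in neither. Of the Socs and Cish genes, 5 were marked in both, 1 in pro-T only and 2 in pre-B only, and the other negative regulators and the ubiquitin ligase partners were marked in both throughout.

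The genes with the most similar pattern were found from 4 numbers, the percentiles of the highest fold enrichment and of the covered length of the promoter windows in each line. The distance is Euclidean, in percentile points, and genes that share a peak with the member were left out. Nearest to Cish were Plek, with a distance of 0.478, and Pdgfa, with 3.76. Nearest to Socs1 were Tmbim4 (1.21) and Akna (1.5), and nearest to Socs5 were Trf and the overlapping Gm20425 (1.87 each), which share their peak. For the genes marked in both lines the nearest were Zbtb38 (7.03) and Slc45a4 (9.89) for Socs2, Thap11 (7.04) and St8sia4 (7.22) for Socs3, Ubp1 (8.13) and Rgs2 (9.82) for Socs4, Thoc7 (5.46) and Tulp4 (6.69) for Socs6, and Rrp15 (5.87) and Mdh2 (6.85) for Socs7. The likeness rests on 2 lines only.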

How the data were processed

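H3K4me3 ChIP-seq peaks of the pro-T line Scid.adh.2C2 and the Abelson-transformed pre-B line were analysed. Per the submitters' processing notes and the study's methods, reads were trimmed by the authors in Trim Galore (0.6.7). The authors mapped them to mm10 (GRCm38) with Bowtie2 (2.4.4), called narrow peaks with MACS2 (2.2.7.1) at a q-value of 0.05 and kept the optimal set at an IDR threshold of 0.05. In the deposited lists each peak has an IDR score, a fold enrichment ratio over background, a −log10 p-value, a −log10 q-value (not used here) and a summit. These are the authors' values for the combined replicates, were used unchanged, and were compared as percentiles within a list. The input libraries entered only through peak calling.

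Genes and TSSs were taken from GENCODE M21 on GRCm38, promoter sequences from the RefSeq table and other sequence from the GRCm38.p6 genome. A percentile is the share of marked protein-coding genes of the same list at or below the value. The members and the gene lists were chosen with earlier results of these data known. All 8 members, the pathway genes marked in 1 line only (at most 3 per line and list), genes sharing a promoter peak with a member and the 2 most similar genes per member were named by rule. Jak3, Stat5a, Il7r, Pim1 and the neighbours of Socs1, Socs5 and Cish were added after their values were seen. No test was run, because each line has 1 list. The promoter rule was tested on simulated peaks. Python 3.11.15, numpy 2.4.6, pandas 2.3.3, matplotlib 3.10.9 and samtools 1.23.1 were used.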

Additional observations from a re-analysis of the deposited data

How the results depend on the processing

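The counts of marked genes were recomputed with windows of 1000 and 5000 bp, with TSSs of protein-coding transcripts, with lists cut to equal length, with a required overlap of 500 bp, and after dropping peaks under 10-fold enrichment or under the top IDR score, and under these settings the same genes stayed in each state. With the most upstream TSS alone, 2 genes were marked in pro-T only, since Socs6 joined Socs5 through its pro-T peak of 661 bp. With the summit inside the window, Socs1 lost its call, which left 1 gene marked in pre-B only and 1 in neither line. Without peaks shared with another protein-coding promoter, Socs1 and Socs4 were unmarked, so that 1 gene was marked in pre-B only and 2 in neither. The median highest fold enrichment in pro-T was 19.1 with the most upstream TSS and 21.3 without shared peaks, and in pre-B it was 21.8 with 1000 bp or with protein-coding transcripts and 22.0 with the summit rule or the most upstream TSS. The widest Socs2 peak in pro-T was 1015 bp instead of 2208 bp with 1000 bp, with the most upstream TSS or with protein-coding transcripts. The median widest peak in pro-T was 2598 bp without shared peaks. In pre-B it was 4655.5 bp with the summit rule, 5889.5 bp with the most upstream TSS, 4264 bp as covered length and 6649 bp after merging peaks within 1000 bp. Away from TSSs, 4 peaks in pro-T and 16 in pre-B were left within 50 kb, and 3 and 17 with at least 10-fold enrichment. No paired analysis was possible because the replicates of each line are combined in 1 list, and for the same reason no replicate could be left out. An unmarked promoter may still carry signal below the authors' thresholds.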
